A study of Homo sapiens with 20 samples.

Results

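The immediate early AP-1 and EGR factors were followed as 10 genes, FOS, FOSL1, FOSL2, JUN, JUNB, JUND, EGR1, KLF6, IER3 and MYC, chosen by symbol. The choice was made with earlier results of these data known. Every probe assigned to them was taken from both tables of array intensities before normalization. All 10 were among the 11899 annotated genes tested in the miR-1 experiment. Of the 11820 annotated genes tested in the miR-4728-3p experiment 9 were members, and IER3 was tested beside them. Each gene had 1 probe, apart from MYC with 2, and all 11 probes passed the filter on low intensity in both experiments. The IER3 probe was listed without a gene in the annotation of the miR-4728-3p array, which named 9 of the 10 genes and 10 of the 11 probes, and was assigned through the same probe identifier on the other array.

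The cells were MCF10A, an immortalised, non-tumorigenic line of human mammary epithelium with no introduced allele named in the labels. In the first experiment 6 cultures received a miR-4728-3p mimic and 6 received a control siRNA, and in the second 4 cultures received a miR-1 mimic and 4 a non-targeting control. The labels name the control of the first experiment as a non-targeting siRNA, while the transfection protocol also lists a control oligonucleotide of the length of the miR-4728-3p mimic, and the group is taken here as labelled. A mimic is a synthetic duplex that loads the named microRNA into the silencing machinery, so cells hold far more of it than they make themselves. All cultures were transfected with a cationic lipid reagent at 100 nM and harvested 32 h later. Poly(A) transcripts were measured on 20 Illumina HumanHT-12 arrays, of a different version in each experiment, and every culture is 1 biological replicate of a single cell line.

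Immediate early genes are transcribed within minutes of a growth factor or stress signal, without new protein synthesis, and their transcripts decay fast. FOS and JUN proteins pair through leucine zippers to form AP-1, which binds a short palindromic DNA site, while EGR1 is a zinc finger factor with GC-rich sites and MYC pairs with MAX on E-boxes. In mammary epithelial cells the transcription factors of the set relay EGF receptor and MAP kinase signals to the nucleus. The serum response factor SRF and its partners switch on FOS, EGR1 and JUNB at CArG boxes. A CArG box is a pair of C and a pair of G around a core of A and T.

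The transfected sequences are shown because both comparisons rest on them. miR-4728-3p lies in an intron of the HER2 gene, and the study examined pairing through its ordinary seed, bases 2 to 8, and through an internal seed, bases 6 to 12. Sequences are from RefSeq (GRCh38.p14), 5′ to 3′, with the seed in capitals, and the second line marks the internal seed of the same molecule.
hsa-miR-4728-3p: cAUGCUGAccucccuccugccccag
hsa-miR-4728-3p, internal seed: caugcUGACCUCccuccugccccag
hsa-miR-1-3p: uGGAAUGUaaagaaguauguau
miR-4728-3p is 25 bases long and is encoded on the plus strand at chr17:39726537-39726561. miR-1-3p is 22 bases long and comes from 2 genes, at chr20:62554351-62554372 on the plus strand and at chr18:21829015-21829036 on the minus strand. The seeds of the 2 microRNAs differ.

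Intensities are given as log2 values after background correction and quantile normalization within each experiment, where a step of 1 is a 2-fold difference. Levels of different probes, and levels across the 2 experiments, are not on a common scale. Each mimic was used in its own experiment, so a difference between the 2 mimic effects cannot be told apart from one between experiments. A gene was called when its adjusted p (limma, Benjamini-Hochberg over all tested probes) was under 0.05. With the miR-4728-3p mimic 1 member fell, IER3, and 1 rose, KLF6, out of 10, whereas 3.8% of all tested genes were called lower, 3.94% higher and 7.74% in either direction. IER3, whose probe was named through the other array, is not among the 11820 genes behind the shares of this experiment. Without it 0 of 9 members fell. With the miR-1 mimic 1 member fell, FOS, and none rose, whereas 1.24% of all tested genes were called lower, 1.45% higher and 2.69% in either direction. These miR-1 shares rest on 147 genes called lower and 173 higher, which became 78 and 101 without mimic replicate 3, 88 and 108 without control replicate 1, 93 and 114 without control replicate 3, and 75 and 91 without control replicate 4. At an unadjusted p under 0.05, 4 members passed in the miR-4728-3p experiment against 19.3% of all genes, and 2 passed in the miR-1 experiment against 15.5% of all genes. The median log2 fold change of the 10 members was -0.04 with the miR-4728-3p mimic and 0.07 with the miR-1 mimic, next to -0.024 and -0.0052 over all genes tested. The arrays' median raw intensities overlapped between groups, at 113 to 134 in miR-4728-3p mimic and 101 to 135 in control cells, and at 107 to 121 in miR-1 mimic and 92 to 114 in control cells. As these are bulk RNA samples, fewer cells expressing a gene and less RNA per cell cannot be told apart.

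**Figure D1:**
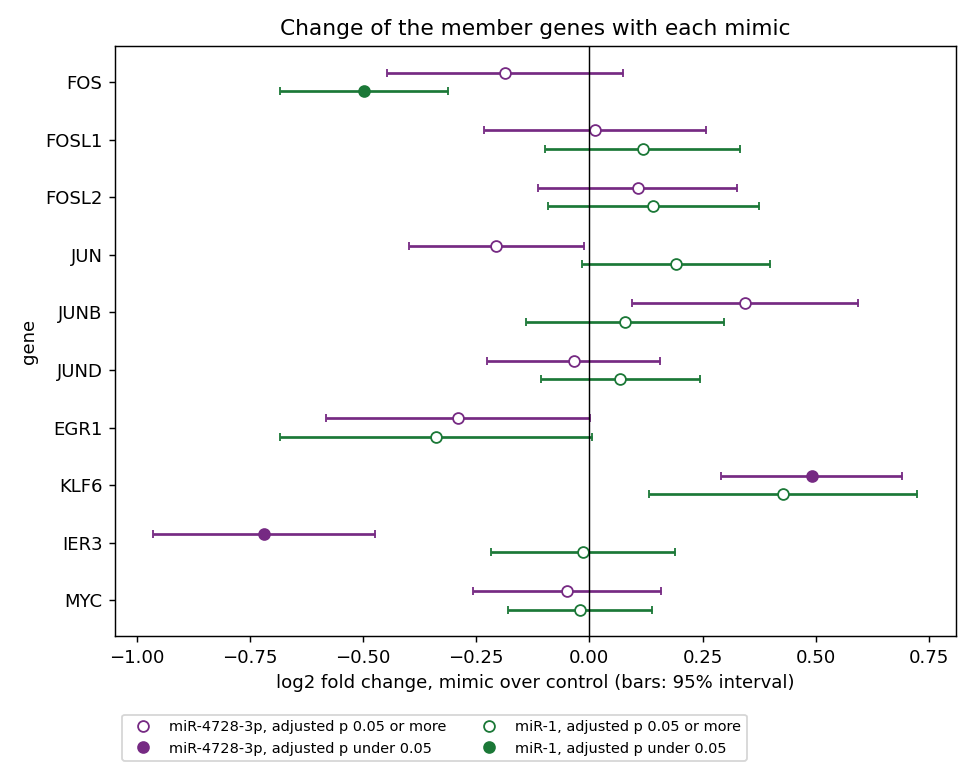
Log2 fold change (x axis, mimic over control) of the 10 member genes (y axis) with the miR-4728-3p mimic (purple) and the miR-1 mimic (green). Bars are 95% intervals and filled points have an adjusted p under 0.05: IER3 at -0.72 and KLF6 at 0.49 with miR-4728-3p, and FOS at -0.50 with miR-1.

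The FOS-family subunits cannot pair with themselves and bind the AP-1 site only together with a JUN protein. FOS, the founding member and the fastest to be induced, was lower with the miR-1 mimic. It measured 7.49, 7.62, 7.39 and 7.26 in the 4 miR-1 mimic cultures and 7.92, 7.86, 8.0 and 7.98 in the 4 control cultures. Every mimic culture lay below every control culture, a separation seen in the same direction in 5.73% of all tested genes of this experiment, in the opposite direction in 5.02% and in either direction in 10.7%. FOS fell by 0.50 on the log2 scale (SE 0.0866, n = 4 each, adjusted p = 0.00718), a fold of 0.708. In the miR-4728-3p experiment FOS ranged from 7.51 through a median of 7.84 to 8.04 in mimic cells and from 7.57 through 7.91 to 8.44 in control cells. These ranges overlapped, and the log2 fold change was -0.19 (SE 0.126, n = 6 each, adjusted p = 0.534). The effects of the 2 mimics on FOS differed by 0.31 on the log2 scale (95% interval -0.05 to 0.67), which did not pass the test of the difference (adjusted p = 0.433).

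FOSL1 and FOSL2, which encode the FOS-related subunits FRA-1 and FRA-2 that accumulate later and stay longer after a stimulus, did not pass in either experiment. FOSL1 measured 7.13, 6.60, 6.83 and 6.99 in miR-1 mimic cells and 6.81, 6.76, 6.74 and 6.78 in control cells. The mimic cultures spanned the control values on both sides, with a log2 fold change of 0.12 (95% interval -0.10 to 0.33). With the miR-4728-3p mimic the FOSL1 log2 fold change was 0.01 (95% interval -0.23 to 0.26). FOSL2 changed by 0.11 with the miR-4728-3p mimic (95% interval -0.11 to 0.33) and by 0.14 with the miR-1 mimic (95% interval -0.09 to 0.37). Both FOSL2 intervals hold 0. Mean FOSL2 levels were low, 6.69 in miR-4728-3p mimic and 6.58 in control cells, where the filter lay at 6.36. In the miR-1 experiment they were 6.76 in mimic and 6.62 in control cells, where the filter lay at 6.17. Signals this near the filter, that of FOSL1 in the miR-1 experiment among them, limit what these intervals show.

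The JUN-family subunits pair with FOS proteins or with each other. JUN, the strongest activator of the family and a target of the JNK kinases, had opposite signs with the 2 mimics. It ranged from 8.51 through a median of 8.71 to 8.79 in miR-4728-3p mimic cells and from 8.76 through 8.87 to 9.07 in control cells. The groups overlapped only narrowly, between the highest mimic and the lowest control cultures, and the log2 fold change was -0.21 (SE 0.0933, adjusted p = 0.263). In the miR-1 experiment JUN measured 7.54, 7.38, 7.36 and 7.62 in mimic cells and 7.08, 7.21, 7.41 and 7.43 in control cells. The log2 fold change was 0.19 (SE 0.0966, adjusted p = 0.447), and 2 of the control cultures lay among the mimic cultures. The difference between the 2 effects, -0.40 (95% interval -0.67 to -0.12), had the next smallest p of the members after IER3 but did not pass (adjusted p = 0.0933).

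JUNB, a weaker activator that can hold JUN in check and is an SRF and cytokine target, ranged from 7.56 through 7.70 to 7.87 in miR-4728-3p mimic cells and from 6.91 through 7.34 to 7.72 in control cells. Its mimic cultures lay closer together than its control cultures, with SDs of 0.131 in mimic and 0.297 in control cells. The log2 fold change was 0.34 (SE 0.121, adjusted p = 0.109), and it passed when control replicate 1, the highest control culture, was left out (0.42, adjusted p = 0.0352). It stayed uncalled under 9 of 9 alternatives and 11 of 12 left-out arrays, with adjusted p up to 0.374 and 0.270. JUNB gave a log2 fold change of 0.08 with the miR-1 mimic (95% interval -0.14 to 0.30). Its mean levels there, 6.53 in mimic and 6.45 in control cells, lay near the filter of 6.17, which limits what this interval shows. JUND, the subunit that most cells make constantly, gave -0.03 with the miR-4728-3p mimic (95% interval -0.23 to 0.16) and 0.07 with the miR-1 mimic (95% interval -0.11 to 0.24). Its spread within groups in the miR-4728-3p experiment was among the smallest of the array, with 3.13% of tested genes below it.

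EGR1 had the widest spread of the members. It ranged from 9.35 through 9.69 to 9.95 in miR-4728-3p mimic cells and from 9.34 through 10.08 to 10.28 in control cells. Control replicate 1 lay at 9.34, below every mimic culture, while 4 of the other 5 control cultures lay above all of them. The log2 fold change was -0.29 (SE 0.141, adjusted p = 0.314), and without control replicate 1 it was -0.41 and passed (adjusted p = 0.0442). It stayed uncalled under 9 of 9 alternatives and 11 of 12 left-out arrays, with adjusted p up to 0.673 and 0.538. The 9 include the same alternative chosen after seeing the data. After the miR-1 mimic EGR1 measured 9.51, 9.68, 9.33 and 8.91 in mimic cells and 9.64, 9.32, 9.80 and 10.03 in control cells. The groups overlapped, with the lowest culture in the mimic group and the highest in the control group, and the log2 fold change was -0.34 (SE 0.161, adjusted p = 0.414). The within-group SD of EGR1 exceeded that of 93.7% of tested genes in the miR-4728-3p experiment and 98.8% in the miR-1 experiment. The 2 effects differed by 0.05 (95% interval -0.43 to 0.53), and neither a fall in both experiments nor a difference between them was shown.

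KLF6, a zinc finger factor that binds GC-rich promoters and is induced early after serum or injury, was higher with the miR-4728-3p mimic. It ranged from 11.13 through 11.25 to 11.35 in mimic cells and from 10.50 through 10.77 to 10.95 in control cells. All 6 mimic cultures lay above all 6 control cultures, a separation seen upward in 2.94% of tested genes, downward in 2.64% and in either direction in 5.58%. KLF6 rose by 0.49 on the log2 scale (SE 0.0967, n = 6 each, adjusted p = 0.00154), which is 40.5% on the linear scale. In the miR-1 experiment it measured 9.69, 9.31, 9.56 and 9.98 in mimic cells and 8.96, 9.14, 9.54 and 9.19 in control cells. There 3 mimic cultures stood above all control cultures and the other lay among them, with a log2 fold change of 0.43 (SE 0.138, adjusted p = 0.168). The spread of KLF6 within groups exceeded that of 97.3% of tested genes in the miR-1 experiment, against 11.4% in the miR-4728-3p experiment. The 2 effects on KLF6 differed by 0.06 (95% interval -0.28 to 0.40, adjusted p = 0.928), which does not show that the mimics act alike on it.

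IER3, a small stress-responsive protein that modulates ERK signalling and cell survival and is induced by NF-kB and growth factors, showed the largest change among the members with the miR-4728-3p mimic. It ranged from 10.70 through 10.95 to 11.42 in mimic cells and from 11.48 through 11.67 to 12.04 in control cells. No mimic culture reached the lowest control culture, a separation seen downward in 2.64% of tested genes and in either direction in 5.58%. IER3 fell by 0.72 on the log2 scale (SE 0.118, n = 6 each, adjusted p = 0.000192), a fold of 0.608. After the miR-1 mimic it measured 11.13, 10.67, 10.79 and 10.81 in mimic cells and 10.82, 10.93, 10.83 and 10.88 in control cells. The mimic cultures lay on both sides of the controls, and the log2 fold change was -0.01 (95% interval -0.22 to 0.19). The difference between the 2 effects, -0.71 (SE 0.169, 95% interval -1.05 to -0.36, adjusted p = 0.00906), passed for IER3 alone among the members, whereas 4.95% of the 17097 probes tested in both experiments passed.

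MYC, the driver of growth and ribosome synthesis, was read by 2 probes, which differed from control by little in both experiments. With the miR-4728-3p mimic the brighter probe ranged from 12.04 through 12.43 to 12.51 in mimic cells and from 12.27 through 12.43 to 12.54 in control cells. The 2 probes gave log2 fold changes of -0.05 (95% interval -0.26 to 0.16) and -0.04 (95% interval -0.23 to 0.14). With the miR-1 mimic they gave -0.02 (95% interval -0.18 to 0.14) and -0.14 (95% interval -0.32 to 0.04).

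**Figure D2:**
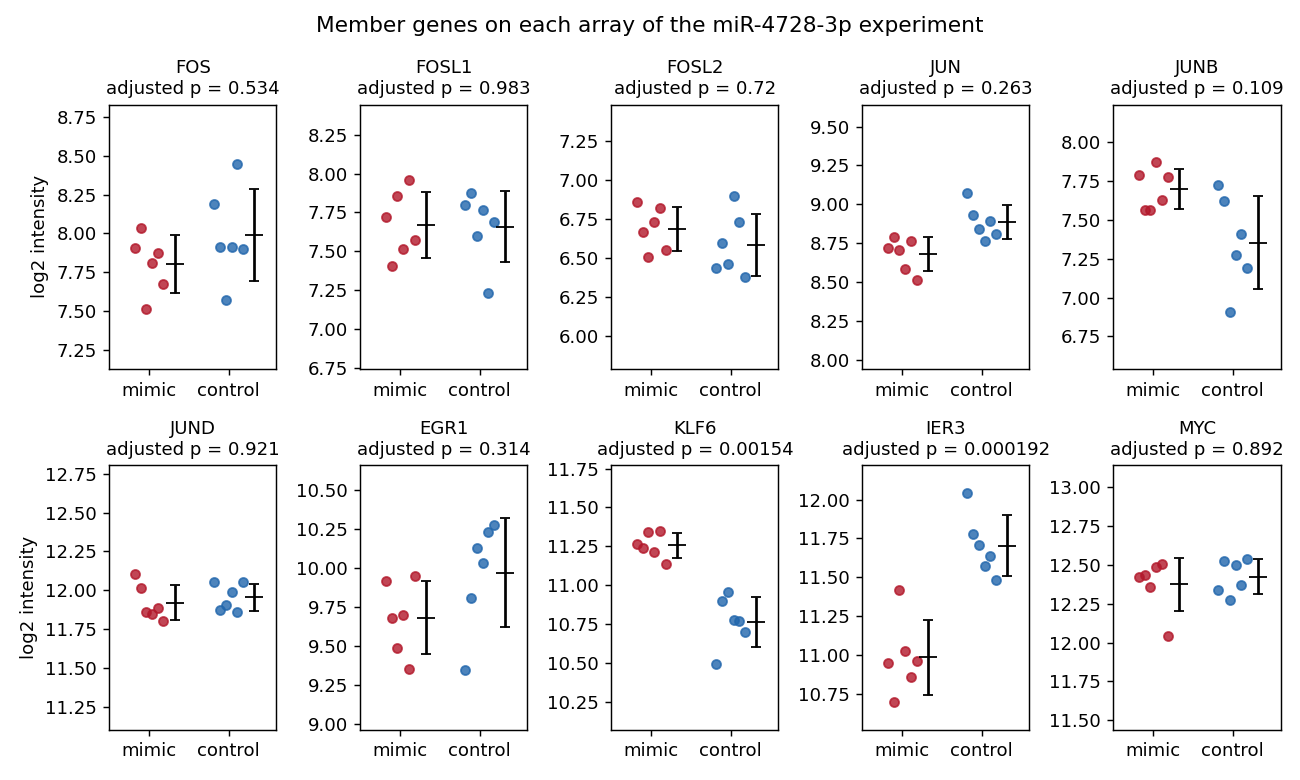
Log2 intensity (y axis, each panel spanning the same range of 1.7 log2 units) of the 10 members on the 6 miR-4728-3p mimic arrays (red, left) and the 6 control arrays (blue, right). Points are arrays in replicate order, black marks the mean with SD; only KLF6, higher in mimic cells, and IER3, lower in mimic cells, show no overlap.

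**Figure D3:**
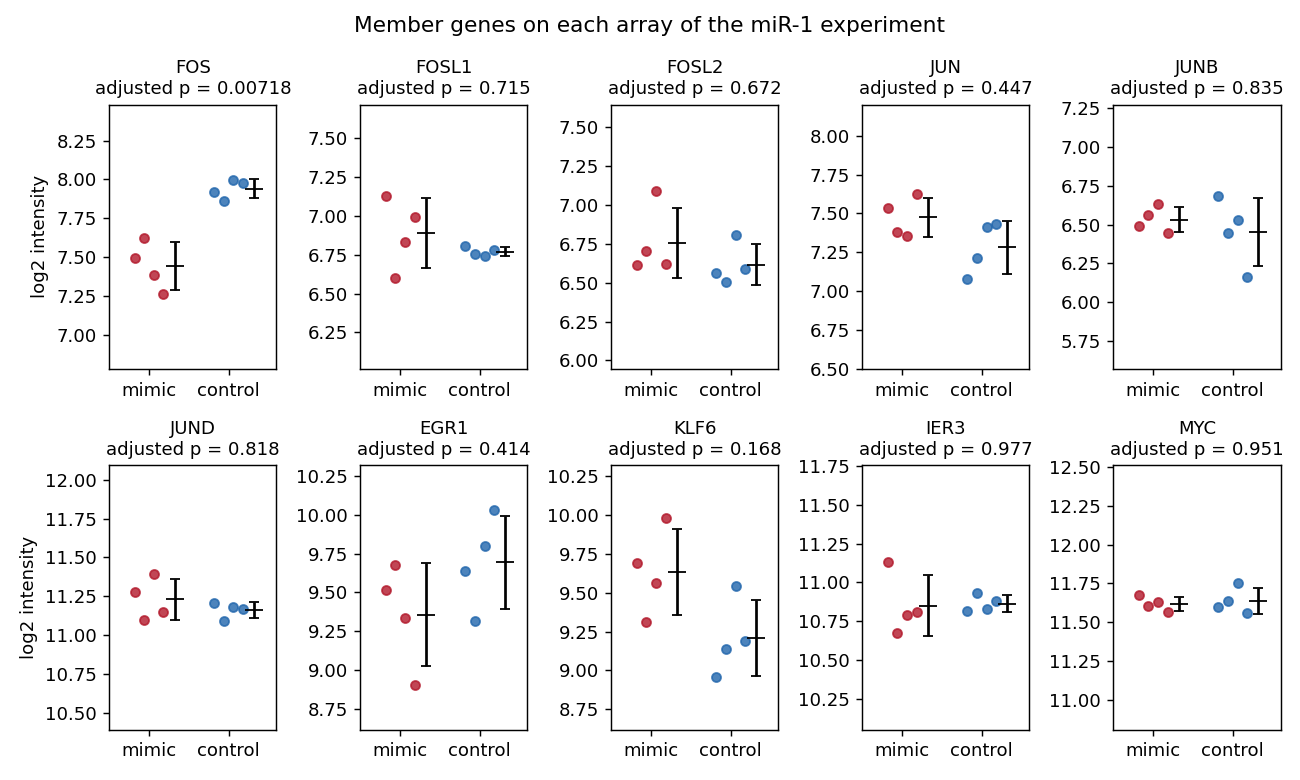
Log2 intensity (y axis, each panel spanning the same range of 1.7 log2 units) of the 10 members on the 4 miR-1 mimic arrays (red, left) and the 4 control arrays (blue, right). Points are arrays in replicate order, black marks the mean with SD; only FOS, lower in mimic cells, shows no overlap.

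The genes around the members were then read from lists of related factors, regulators and targets, also chosen with earlier results of these data known. Over all tested genes, 3.8% were called lower and 3.94% higher with the miR-4728-3p mimic, and 1.24% and 1.45% with the miR-1 mimic. At an unadjusted p under 0.05 the shares in either direction were 19.3% and 15.5%. In the miR-4728-3p experiment SRF itself was lower, from 8.85 to 9.50 in mimic cells and from 10.24 to 10.61 in control cells. The groups did not overlap, as in 2.64% of tested genes downward and 5.58% in either direction. SRF fell by 1.12 on the log2 scale (SE 0.112, adjusted p = 1.03e-07). FHL2, a LIM-domain cofactor of SRF, also fell, by 0.54 (adjusted p = 0.00382), while the other 9 of 11 SRF partners, ternary complex factors, CREB genes and NAB repressors did not pass. In the miR-1 experiment none of the same 11 genes passed, and SRF measured 8.95 to 9.43 in mimic cells and 8.85 to 8.94 in control cells (log2 fold change 0.27, adjusted p = 0.233). Its arrays did not overlap between groups there, as in 5.02% of tested genes upward and 10.7% in either direction. The difference between the mimics was fitted for SRF with the other shared probes, and its value is not given here. At an unadjusted p under 0.05, 2 of the 11 passed in the miR-1 experiment, against 15.5% of all tested genes. In the MAP kinase cascade from EGFR to ERK and JNK 0 of 11 tested genes passed in either experiment (3 with the miR-4728-3p mimic and 1 with the miR-1 mimic at an unadjusted p under 0.05), with medians of -0.16 in miR-4728-3p mimic against control cells and 0.04 in miR-1 mimic against control cells.

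The promoters of the members show which of them carry the sites of these factors close to their start. RefSeq promoters (GRCh38.p14, 250 bases before to 50 after the start) were found for 7 of the 10 members. FOSL1, IER3 and MYC had none listed and were not searched. A CArG box was searched for on both strands, and among these 7 members only EGR1 held any, with 2. Boxes outside this window were not searched for, so the other members lack one only within it. Of all 35116 promoters of this length, 1.29% held at least 1. Of the 2 promoters listed for SRF, 1 held 2 boxes and the other none. The windows below have the CArG boxes in capitals and run 5′ to 3′ on the plus strand.
EGR1, chr5:138465364-138465393: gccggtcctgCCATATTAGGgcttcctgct
EGR1, chr5:138465386-138465415: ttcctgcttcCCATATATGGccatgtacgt
SRF, chr6:43171239-43171268: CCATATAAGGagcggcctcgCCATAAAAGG
The EGR1 boxes begin 105 and 83 bases before the start and the SRF boxes 30 and 10 bases before it. With the miR-4728-3p mimic, EGR1 did not pass and SRF fell, as given above.

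KLF6, the member that rose, held 1 EGR site, GCGNGGGCG, and 1 E-box, CACGTG, which 9.43% and 7.26% of all promoters hold in either orientation. Its windows are shown on the minus strand with the site in capitals.
KLF6, EGR site, chr10:3785255-3785284: ggggagccagGCGGGGGCGgagggggaggc
KLF6, E-box, chr10:3785289-3785318: cgcggggcgagtCACGTGgggggaggggga
EGR1 also held 1 EGR site. Among the 7 members searched, the AP-1 site TGACTCA was found in FOSL2 alone and the related cyclic AMP element TGACGTCA in JUND alone, against 4.95% and 1.85% of all promoters. FOS, JUN and JUNB held none of the 5 motifs in this window. These matches describe letters and not occupied sites.

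Of the other members of the AP-1 family, 2 of 8 tested genes rose and none fell with the miR-4728-3p mimic. BATF2, a dimer partner of JUN proteins that is known as an interferon-induced gene, rose by 1.69 on the log2 scale (8.04 ± 0.19 in mimic and 6.36 ± 0.33 in control cells, SD, n = 6 each, adjusted p = 1.46e-09). Its control level lay at the filter on low intensity, 6.36, so that it entered the test through the mimic arrays. ATF3, a stress-induced partner of JUN, rose by 1.03 (7.66 ± 0.38 in mimic and 6.63 ± 0.12 in control cells, adjusted p = 1.09e-05). In the miR-1 experiment 0 of 7 passed (0 at an unadjusted p under 0.05), and the ATF3 log2 fold change was 0.05.

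Of the other immediate early genes, 4 of 25 rose and 2 fell with the miR-4728-3p mimic, with a median log2 fold change of 0.11 next to -0.02 over all genes tested. ATF3, counted in both lists, was joined by KLF4, a factor of epithelial differentiation, which rose by 1.02 (adjusted p = 4.05e-05), and by CSRNP1, which rose by 0.70 (adjusted p = 0.00049). CCN2, a secreted matrix protein under SRF and YAP control, fell by 0.91, with 9.57 ± 0.28 in mimic and 10.48 ± 0.14 in control cells (adjusted p = 6.92e-06). The other gene that fell was PHLDA1, by 0.51 (adjusted p = 0.0112), and the fourth that rose was KLF2, by 0.42 (adjusted p = 0.0499), both named after their values were seen since their groups overlapped. With the miR-1 mimic 0 of 23 rose and 1 fell, SGK1, a serum-induced kinase, by 0.55 (9.61 ± 0.09 in mimic and 10.15 ± 0.15 in control cells, SD, n = 4 each, adjusted p = 0.00468).

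Among AP-1 target genes 2 of 19 rose and 3 fell with the miR-4728-3p mimic. PLAUR, the urokinase receptor, rose by 1.27 (9.40 ± 0.21 in mimic and 8.13 ± 0.16 in control cells, adjusted p = 1.08e-08) and the cytokine IL6 by 1.17 (adjusted p = 1.01e-05). CD44, an adhesion receptor for hyaluronan, fell by 0.47 (adjusted p = 0.00274). Of 16 tested genes in the miR-1 experiment 3 rose and none fell: TXNRD1, a thioredoxin reductase, by 0.64 (adjusted p = 0.00207), and the interleukins IL1B by 0.50 (adjusted p = 0.0056) and IL1A by 0.44 (adjusted p = 0.0335). IL1A was also 1 of the 3 genes that fell with the miR-4728-3p mimic, by 0.58 (adjusted p = 0.00459), next to CXCL8, a neutrophil chemokine, by 0.74 (adjusted p = 0.000934). Both are named for that experiment after their values were seen, since their groups overlapped. Over the list the calls ran both ways with miR-4728-3p and upward with miR-1, with medians of -0.04 with miR-4728-3p and -0.03 with miR-1.

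Of 21 tested MYC target genes, 3 fell and none rose with the miR-4728-3p mimic, and 20 of the 21 had a log2 fold change below 0, against 6632 of 11820 over all genes. Their median was -0.16. TFRC, the transferrin receptor, fell by 0.53 (12.57 ± 0.11 in mimic and 13.10 ± 0.12 in control cells, adjusted p = 0.000498) and ODC1, the first enzyme of polyamine synthesis, by 0.51 (adjusted p = 0.00845). The third, SRM, a later enzyme of the same pathway, fell by 0.36 (adjusted p = 0.0472) with overlapping groups and is named after its values were seen. In the miR-1 experiment 1 of 21 rose, also TFRC, by 0.56 (11.97 ± 0.21 in mimic and 11.40 ± 0.21 in control cells, adjusted p = 0.0229), none fell, and the median was 0.05. Among MYC partners and antagonists 1 of 11 fell with the miR-4728-3p mimic and 0 of 10 passed with the miR-1 mimic (1 at an unadjusted p under 0.05). The one that fell was PIM1, a kinase that cooperates with MYC, by 0.48 (adjusted p = 0.0039), named after its values were seen since its groups touched.

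**Figure D4:**
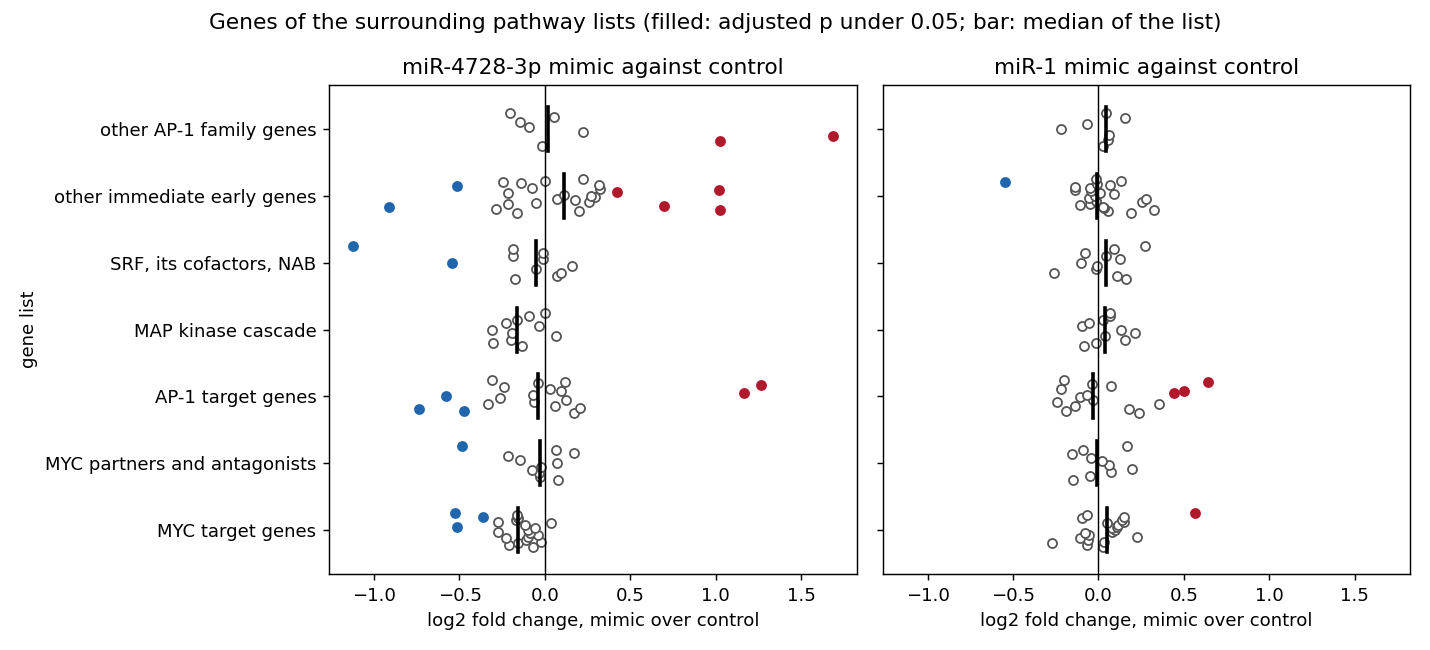
Log2 fold change (x axis, mimic over control) of the tested genes of 7 lists (y axis) with the miR-4728-3p mimic (left) and the miR-1 mimic (right). Filled points have an adjusted p under 0.05, red higher and blue lower in mimic cells, and vertical bars are list medians; SRF stands at -1.12 and BATF2 at 1.69 in the left panel.

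Interferon response genes moved with the miR-4728-3p mimic on the same arrays. All 24 tested genes of the list rose, with a median log2 fold change of 4.40. For MX2 the control level, 6.21, lay below the filter, so that it entered the test through the mimic arrays. The list's mean level was 11.71 to 12.57 on mimic arrays and 7.61 to 8.15 on control arrays. IFIT3, an antiviral effector, rose by 5.98 and OAS2, a sensor of double-stranded RNA, by 5.85. In the miR-1 experiment none of 21 tested genes passed, the median was -0.0031 (none passed at an unadjusted p under 0.05), and their mean level was 7.21 to 7.35 on mimic arrays and 7.27 to 7.32 on control arrays. The part of this response in the changes of KLF6, IER3, ATF3 and the other genes above was not tested.

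The cells carried the epithelial markers of their label that had an annotated probe, in both experiments. Of 8 basal markers 5 had such a probe, and KRT6A, KRT17 and TP63 had none. The basal keratins KRT5 and KRT14, the integrin ITGB4, the laminin LAMB3 and P-cadherin CDH3 were each brighter than at least 88.2% of probes, and the leukocyte marker PTPRC, the T-cell marker CD3E, haemoglobin HBB and the endothelial markers VWF, CDH5 and KDR stayed below the filter. Other markers on these lists passed it: CD14, brighter than 94.0% of probes in the miR-4728-3p and 92.7% in the miR-1 experiment, the endothelial PECAM1 in both, and haemoglobin HBA1 in the miR-4728-3p experiment. Of 6 fibroblast and smooth muscle markers, 3 were tested in the miR-4728-3p and 2 in the miR-1 experiment, among them ACTA2, brighter than 94.4% and 86.4% of probes, and DCN, brighter than 90.1% and 70.0%, and none passed the test of a change. Of the blood cell markers 1 of 3 tested rose with the miR-4728-3p mimic, CD68, a lysosomal protein of macrophages and other cells, by 1.31. The mean level of those 3 markers was 8.97 to 9.38 on mimic and 8.49 to 8.94 on control arrays. KRT14 rose by 0.72 with the miR-1 mimic, and 2 of 5 general epithelial markers rose, CDH1 by 0.49 and KRT8 by 0.53. The mean level of the 5 general markers was 9.44 to 9.57 on miR-1 mimic and 9.20 to 9.33 on control arrays, beside which FOS was lower, and the part of these genes in that result was not tested.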

How the data were processed

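RNA of 20 MCF10A cultures was hybridised to Illumina HumanHT-12 arrays. The deposited intensity values before normalization (48803 and 47323 probes) were analysed, and the intensity values that the authors normalized on their BASE server served as an alternative. No column of sample values went unused (0). In R 4.3.3 with limma 3.58.1, intensities were background-corrected by normexp (offset 50, without control probes), quantile-normalized within each experiment and log2-transformed. Probes whose average exceeded the overall median intensity (6.36 and 6.17) were tested, 20919 and 22031 of them, by lmFit and eBayes without a block, mimic over control, with Benjamini-Hochberg adjustment over all tested probes. The difference between mimics was tested by limma on 17097 shared probes, with a common variance per probe over both experiments. A gene was read from its brightest tested probe. Probe annotation gave 1 gene for 27578 and 30113 probes, several for 13 and 8, and none for 21212 and 17202. Of 26247 probe identifiers annotated on both arrays, 99.5% had the same symbol.

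The members and gene lists were chosen with earlier results of these data known. Named genes were all members, SRF, and from each list up to 4 genes per comparison with the smallest p among those with an adjusted p under 0.05 and no overlap between groups. No read depth exists for arrays, so the number of arrays limits the precision. Dose is given as 100 nM by the labels, whereas the methods name a lower dose for some transfections. The fit was tested on simulated data. Slide and scan date were not used here. Alternatives were no background correction, offset 16, the authors' values, no filter, a filter at the 75th percentile, the replicate number as block, array weights, a robust trended eBayes fit and leaving out each array. Figures were drawn with matplotlib 3.10.9.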

Additional observations from a re-analysis of the deposited data

Results flagged for a closer look

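The brighter MYC probe on miR-4728-3p mimic replicate 6 stood apart from the other 5 mimic arrays: it measured 12.04 on the log2 scale, with the nearest array at 12.36 and the highest at 12.51, so that the gap made up 0.672 of the group's range. Of 44 groups of arrays checked over the member probes, this was the only 1 past Dixon's critical value for its size. Groups of 4 arrays have a higher critical value, and some of them had a larger gap share without passing it. Chance alone gives such a flag in about 1 of 20 groups. On the same array the other MYC probe measured 11.95, inside the 11.93 to 12.16 range of the mimic group.

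The effect of the miR-4728-3p mimic on IER3 differed from that of the miR-1 mimic by -0.71 on the log2 scale (SE 0.169, adjusted p = 0.00906 by limma over 17097 probes). Each mimic had its own experiment and array version, so mimic and experiment cannot be told apart in this difference. IER3 was lower in 6 of 6 miR-4728-3p mimic cultures than in any control culture, a separation seen downward in 2.64% of tested genes. Its miR-1 mimic cultures lay on both sides of their controls. Interferon response genes rose on the same miR-4728-3p mimic arrays and did not pass with the miR-1 mimic, and their part in this difference was not tested.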

How the results depend on the processing

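In the miR-4728-3p experiment IER3 and KLF6 kept their direction and call under 9 of 9 alternatives and 12 of 12 left-out arrays. Adjusted p reached 0.00214 for IER3 and 0.00648 for KLF6 over the alternatives, among them the alternative chosen after seeing the data. Members called lower and higher were 1 and 1 throughout, apart from 2 and 2 without control replicate 1, where JUNB and EGR1 joined (ranges over left-out arrays 1 to 2 for each count). The IER3 difference between mimics also passed throughout, with adjusted p from 0.000992 to 0.0376.

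FOS with the miR-1 mimic passed under 7 of 8 alternatives and 8 of 8 left-out arrays (adjusted p 0.00557 to 0.0338). With the replicate number as a block its adjusted p was 0.0545, so that 0 members were called lower. The replicate numbers do not pair the cultures: the deviations of same-numbered arrays correlated at -0.118 to 0.0591 in the miR-4728-3p experiment and at -0.390 to 0.0410 in the miR-1 experiment. With this block 37 genes were called lower and 67 higher in the miR-1 experiment, against 147 and 173 without it, and 348 and 417 in the miR-4728-3p experiment, against 449 and 466. The block changed no other call of a member.

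Counts of called genes in the miR-1 experiment also fell to 83 lower and 99 higher with an offset of 16, and to 75 to 119 lower and 91 to 153 higher over left-out arrays. The cause was not tested.

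Only values close to 0 changed sign, in no case with a call on either side. With the miR-4728-3p mimic FOSL1 was -0.11 without the 2 dimmest control arrays, an alternative chosen after seeing the data, and -0.074 to 0.065 over left-out arrays, and MYC was -0.080 to 0.017. With the miR-1 mimic the ranges over left-out arrays were -0.11 to 0.045 for IER3, -0.046 to 0.018 for MYC and -0.021 to 0.15 for JUNB. The difference between mimics for EGR1 was -0.055 with array weights and -0.10 to 0.17 over left-out arrays. Over left-out arrays it was -0.095 to 0.076 for FOSL2, -0.050 to 0.18 for KLF6 and -0.068 to 0.037 for MYC. With the filter at the 75th percentile FOSL2 was not tested in either experiment, and FOSL1 and JUNB were not tested in the miR-1 experiment. The number of arrays, 4 a group for miR-1, limits what these comparisons can show.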
